A study of Mus musculus with 6 samples.

Results

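The Iroquois, Isl and Vax homeobox genes (Irx1 to Irx6, Isl1, Isl2, Vax1 and Vax2) were followed in bulk RNA-seq of mG7080 tumors, a murine glioma model grown in the brains of Esm1 wild-type (WT) and Esm1 knockout (KO) hosts. Of the 10 genes, 9 had a row among the 16729 genes of the count table, and Irx4 was not analysed here. The 10 genes were picked by family name with the KO and WT values of several of them already known, so their differences between hosts are given below as a description, without a test. Each host group held 3 tumors, and all hosts were of the C57BL/6 strain. All 6 animals received the same gliomasphere culture, which came from mice with mutations that included p53 and Nf1, so the host animals, rather than the implanted culture, carried the deletion of Esm1, the gene of the secreted proteoglycan Endocan. The comparison addressed how a host without Endocan changes the tumor that grows in it. The labels give no age for the hosts, and by the study's methods they were young adult females. The tumor line is a single culture, and RNA of the tumor cells was sequenced together with that of the surrounding host cells.

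Iroquois proteins are homeodomain transcription factors of the TALE class. In vertebrates the genes lie in 2 clusters of related order, and they pattern the neural plate, the midbrain and hindbrain, the spinal cord and the retina. Isl1 and Isl2 are LIM homeodomain factors best known for the specification of motor neurons, and Isl1 also marks cholinergic and striatal neurons of the forebrain. Vax1 and Vax2 are homeodomain factors of the ventral forebrain and the ventral eye.

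In the annotation of GRCm38 (mm10), Irx1 (13:71957921-71963723, minus strand), Irx2 (13:72628820-72634198, plus strand) and Irx4 (13:73260479-73269608, plus strand) form the cluster on chromosome 13. Their start sites are 665 kb apart between Irx1 and Irx2 and 632 kb apart between Irx2 and Irx4. The cluster on chromosome 8 holds Irx3 (8:91798525-91802067, minus strand), Irx5 (8:92357625-92376286, plus strand) and Irx6 (8:92674288-92680956, plus strand), with 556 kb between the starts of Irx3 and Irx5 and 317 kb between those of Irx5 and Irx6. The other genes lie alone: Isl1 at 13:116298281-116309689 (minus strand), Isl2 at 9:55538672-55546180 (plus strand), Vax1 at 19:59166187-59170056 (minus strand) and Vax2 at 6:83711264-83738313 (plus strand).

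The RefSeq promoter table of GRCm38.p6 held windows for 6 of the 10 genes. The 250 bases upstream of the RefSeq start are shown for 3 genes that were low in the libraries KO 1 and KO 3 (Irx2, Irx3 and Isl2) and for the pair that was not (Isl1 and Vax1). By the gene positions given above, which come from another annotation, the windows of Irx3 and Isl2 lie inside these genes rather than upstream of them. The window of Crnde, a long non-coding transcript that starts beside Irx5 on the opposite strand, is shown because it lies between the starts of these neighbouring transcripts. Each window is written 5′ to 3′ on the strand of its gene, with CG dinucleotides in capitals.
Irx2, chr13:72628570-72628819, plus strand: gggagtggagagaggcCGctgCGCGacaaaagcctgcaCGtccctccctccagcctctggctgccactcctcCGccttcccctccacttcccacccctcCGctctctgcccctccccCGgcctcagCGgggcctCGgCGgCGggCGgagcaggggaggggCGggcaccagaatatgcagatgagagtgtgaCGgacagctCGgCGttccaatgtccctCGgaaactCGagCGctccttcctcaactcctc
Irx3, chr8:91801655-91801904, minus strand: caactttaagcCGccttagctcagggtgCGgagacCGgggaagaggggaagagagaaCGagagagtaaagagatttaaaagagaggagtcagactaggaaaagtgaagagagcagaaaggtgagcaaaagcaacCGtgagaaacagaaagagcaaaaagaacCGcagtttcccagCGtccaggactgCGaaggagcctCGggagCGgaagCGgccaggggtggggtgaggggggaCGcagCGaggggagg
Crnde, chr8:92356121-92356370, minus strand: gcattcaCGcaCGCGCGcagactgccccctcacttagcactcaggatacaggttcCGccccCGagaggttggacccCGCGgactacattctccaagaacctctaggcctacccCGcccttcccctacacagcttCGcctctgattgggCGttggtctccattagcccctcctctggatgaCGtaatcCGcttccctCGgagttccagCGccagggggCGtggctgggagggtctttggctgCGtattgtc
Isl2, chr9:55540899-55541148, plus strand: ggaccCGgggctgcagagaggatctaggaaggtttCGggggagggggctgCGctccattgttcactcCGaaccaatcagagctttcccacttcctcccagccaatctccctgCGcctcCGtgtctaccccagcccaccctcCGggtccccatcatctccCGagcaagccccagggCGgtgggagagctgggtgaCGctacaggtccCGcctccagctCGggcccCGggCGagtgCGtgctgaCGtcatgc
Isl1, chr13:116309689-116309938, minus strand: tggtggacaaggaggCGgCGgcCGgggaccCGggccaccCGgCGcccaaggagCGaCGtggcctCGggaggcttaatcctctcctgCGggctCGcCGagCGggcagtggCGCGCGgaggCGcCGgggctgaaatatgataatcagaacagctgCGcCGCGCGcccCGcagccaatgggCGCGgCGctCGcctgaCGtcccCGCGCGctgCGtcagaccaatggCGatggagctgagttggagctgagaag
Vax1, chr19:59170398-59170647, minus strand: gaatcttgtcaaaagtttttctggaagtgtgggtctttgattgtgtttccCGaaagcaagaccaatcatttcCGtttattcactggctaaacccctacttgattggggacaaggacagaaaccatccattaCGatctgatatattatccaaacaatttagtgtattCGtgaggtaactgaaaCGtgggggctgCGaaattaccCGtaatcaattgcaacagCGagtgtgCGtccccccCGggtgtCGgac

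The Irx2 window held 19 CG dinucleotides, that of Irx3 13, that of Crnde 17 and that of Isl2 16, against a median of 6 over the 32851 windows of the table. Isl1 had 33, more than 96.0% of all windows, while Vax1, whose levels across the tumors ran closest to those of Isl1, had 11. The core homeodomain letters TAATTA, the E-box CACGTG and the TATA box TATAAA, searched on both strands, were found in none of the 6 windows shown. Of all windows, 4.84% held TAATTA, 6.02% CACGTG and 12.4% TATAAA.

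The libraries held between 17632070 and 22241832 counts, so that a single read was worth 0.0441 to 0.0568 CPM (counts scaled to a common library size with TMM factors). For Esm1, 25 counts were found in WT 1, 21 in WT 2 and 82 in WT 3. KO 1 had 1 and KO 3 had 4, but the library labelled KO 2 had 24, nearly as many as WT 1. The implanted culture did not carry the deletion and was sequenced with the host cells. Whether these reads came from host or implanted cells was not tested, so they do not settle the genotype of the host. The library labelled KO 2 also stood apart from the other KO libraries over all genes. The chi-square per degree of freedom between libraries was 188 against KO 1 and 254 against KO 3, compared with 26.7 between KO 1 and KO 3 and 21.9 to 99.9 between WT libraries. The fitted KO against WT differences are therefore given with and without the library labelled KO 2. With all 6 libraries, the edgeR quasi-likelihood test at more than 4-fold and a Benjamini-Hochberg adjusted p under 0.05 called 0 of 16166 genes lower and 0 higher in KO. At more than 4-fold and an unadjusted p under 0.05 the same test gave 78 lower and 47 higher genes, while DESeq2 at the adjusted threshold called 46 and 31, the edgeR exact test 53 and 17, and limma-voom 0 and 0. Without the library labelled KO 2, edgeR called 1218 of 16279 genes lower (7.48%) and 245 higher (1.51%). That library was set apart after its values were seen. Calls and adjusted p-values from fits without it are therefore given as a description and do not carry their usual meaning.

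Irx1, Irx2, Irx3, Irx5, Isl2 and Vax2 were at 5.04 to 24.6 CPM in the WT tumors, low in KO 1 and at or near 0 in KO 3. Their summed level was 47.8, 93.0 and 75.4 CPM in WT 1, WT 2 and WT 3, 4.20 CPM in KO 1 and 0.727 CPM in KO 3, which put the WT mean 29.3-fold above the mean of KO 1 and KO 3. In the library labelled KO 2 the sum was 53.1 CPM, within the WT range. These 6 genes were put together after their values were seen. In bulk RNA, fewer cells of a type and less RNA per cell cannot be told apart.

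**Figure D1:**
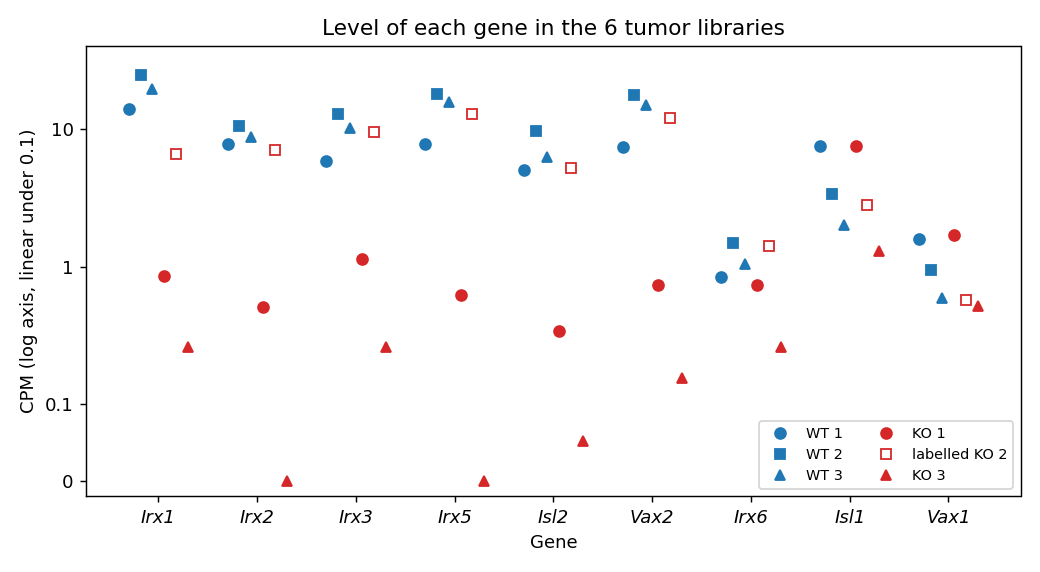
Level of the 9 genes in each library, in CPM on a log axis that is linear under 0.1, with WT tumors in blue, KO tumors in red and the library labelled KO 2 as open squares. For Irx1, Irx2, Irx3, Irx5, Isl2 and Vax2 the points of KO 1 and KO 3 lie below all WT points, at 0 to 1.14 CPM, whereas Isl1 and Vax1 are highest in WT 1 and KO 1.

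Irx1, which acts in early neural and limb patterning, had 296, 466 and 394 counts (13.9, 24.6 and 19.6 CPM) in WT 1, WT 2 and WT 3. KO 1 had 15 counts (0.851 CPM), the library labelled KO 2 148 counts (6.52 CPM) and KO 3 5 counts (0.260 CPM). The groups did not overlap, and Irx1 was the member for which the library labelled KO 2 was farthest below the WT mean, by 2.97-fold. The fitted log2 difference, KO minus WT, was -2.91 (SE 1.07) with all 6 libraries and -5.11 (SE 0.53) without that library.

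Irx2, the neighbour of Irx1 on chromosome 13, had 166, 199 and 177 counts (7.81, 10.5 and 8.78 CPM) in WT 1, WT 2 and WT 3. KO 1 had 9 counts (0.511 CPM) and the library labelled KO 2 159 counts (7.01 CPM). KO 3 had 0 counts, which allows a level of up to 0.156 CPM (3 counts; the upper end of the exact two-sided 95% interval is 0.191 CPM, and such limits and intervals cover counting error only). The groups did not overlap here either, although the library labelled KO 2 was only 1.29-fold below the WT mean. The WT levels of Irx2 varied least of the 9 genes, with the highest WT library 1.35-fold above the lowest. The log2 difference was -1.83 (SE 1.40) with all libraries and -5.13 (SE 0.86) without the library labelled KO 2.

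The cluster on chromosome 8 behaved in part like that on chromosome 13. Irx3, a regulator of neural progenitor patterning, had 5.88, 12.8 and 10.2 CPM in WT 1, WT 2 and WT 3, 1.14 CPM in KO 1, 9.52 CPM in the library labelled KO 2 and 0.260 CPM in KO 3. Irx5, known from retinal bipolar cells and the heart, had 7.77, 17.9 and 15.6 CPM in the WT libraries, 0.624 CPM in KO 1 (11 counts), 12.8 CPM in the library labelled KO 2 and 0 counts in KO 3, again a limit of 0.156 CPM (exact interval up to 0.191 CPM). In both genes the library labelled KO 2 lay inside the WT range and the other KO libraries lay below it, by 13.8-fold for Irx3 and 44.1-fold for Irx5 as WT mean over the mean of KO 1 and KO 3. Log2 differences were -1.39 (SE 1.14) for Irx3 and -1.61 (SE 1.53) for Irx5 with all libraries, and -3.77 (SE 0.67) and -5.45 (SE 0.97) without the library labelled KO 2.

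Irx6, the third gene of that cluster, had low counts in every library and did not share the size of these differences. Its levels were 0.847, 1.48 and 1.04 CPM in WT 1, WT 2 and WT 3 (18, 28 and 21 counts), 0.738 CPM in KO 1 (13 counts), 1.41 CPM in the library labelled KO 2 (32 counts) and 0.260 CPM in KO 3 (5 counts). The WT mean was 2.25-fold above the mean of KO 1 and KO 3, and KO 1 was close to WT 1. Its log2 difference was -0.47 (SE 0.61), or -1.15 (SE 0.54) without the library labelled KO 2.

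Isl2, which marks subsets of motor neurons and retinal ganglion cells, had 5.04, 9.63 and 6.20 CPM in WT 1, WT 2 and WT 3 and 0.341 CPM in KO 1. It had 5.24 CPM in the library labelled KO 2 and a single count (0.0519 CPM, exact 95% interval 0.00131 to 0.289) in KO 3. Vax2, a factor of the ventral retina, had 7.39, 17.5 and 15 CPM in the WT libraries, 0.738 CPM in KO 1, 12 CPM in the library labelled KO 2 and 0.156 CPM in KO 3 (3 counts). Both genes thus had the library labelled KO 2 within the WT range, and WT means that were 35.4-fold (Isl2) and 29.8-fold (Vax2) above the mean of KO 1 and KO 3. The log2 difference of Isl2 was -1.87 (SE 1.29), or -5.11 (SE 0.68) without the library labelled KO 2. For Vax2 it was -1.62 (SE 1.33) and -4.88 (SE 0.71).

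Isl1 and Vax1, the paralogs of these genes, followed another order. Isl1 had 7.48, 3.38 and 1.99 CPM in WT 1, WT 2 and WT 3, 7.49 CPM in KO 1, 2.82 CPM in the library labelled KO 2 and 1.30 CPM in KO 3. Vax1 had 1.60, 0.952 and 0.596 CPM in the WT libraries, 1.70 CPM in KO 1, 0.573 CPM in the library labelled KO 2 and 0.519 CPM in KO 3. Both were highest in WT 1 and KO 1, so the host groups overlapped, and the log2 differences were -0.15 (SE 0.76) for Isl1 and -0.19 (SE 0.62) for Vax1. Without the library labelled KO 2 they were 0.04 (SE 0.84) and 0.08 (SE 0.65). Having WT 1 and KO 1 above the other 4 libraries was shared by 404 of the 16166 genes tested (2.5%). The summed level of a list of striatal and cholinergic neuron markers (11 of 12 in the table, Drd1 without a row) was also highest in these libraries, at 1162 CPM in WT 1 and 2656 CPM in KO 1, against 547 to 738 CPM in the other 4. Its vesicular acetylcholine transporter gene, Slc18a3, was at 3.86 CPM in WT 1 and 4.14 CPM in KO 1, and at 0.467 to 2.64 CPM in the others. The part of these cells in the levels of Isl1 and Vax1 was not tested.

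**Figure D2:**
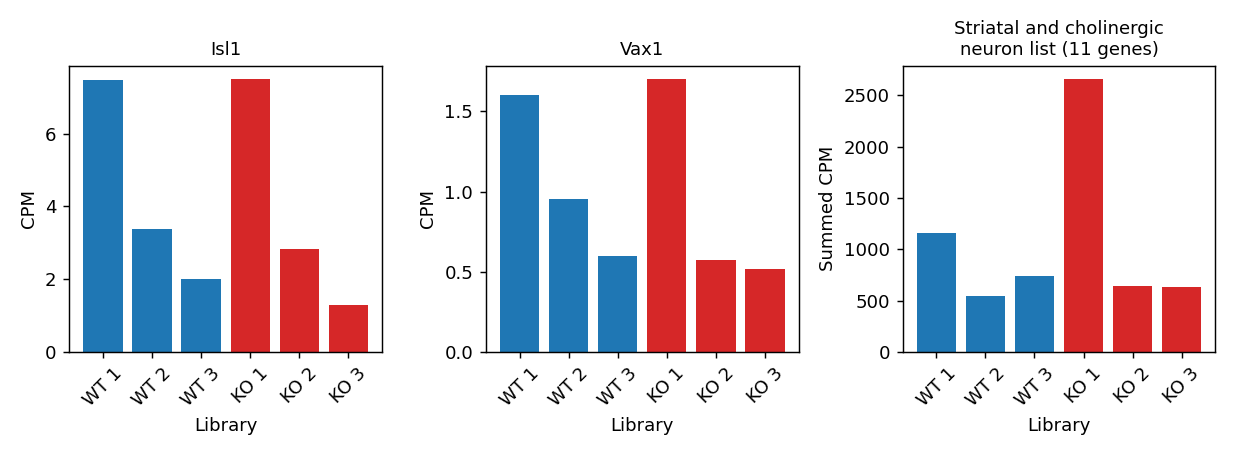
Levels of Isl1 and Vax1 in CPM and the summed CPM of 11 striatal and cholinergic neuron markers, 1 bar per library, with WT tumors in blue and KO tumors in red. In all 3 panels WT 1 and KO 1 are the highest bars, with Isl1 at 7.48 and 7.49 CPM and the marker list at 1162 and 2656 CPM.

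Over the 9 genes, the median log2 difference by edgeR was -1.61 with all libraries and -4.88 without the library labelled KO 2, against -0.02 over all genes in both fits. With all libraries limma-voom gave a median of -3.29. None of the 9 was called by edgeR with all 6 libraries (background 0.0% lower), nor by DESeq2 or limma-voom, while the edgeR exact test called 1 (Irx1, background 0.328%). In turn, 6 (Irx1, Irx2, Irx3, Irx5, Isl2 and Vax2) were called lower by edgeR without the library labelled KO 2 (background 7.48%). With the 4 libraries KO 1, KO 3, WT 1 and WT 2 the same 6 genes were called lower (background 6.23%). All 3 KO libraries lay below all WT libraries for Irx1 and Irx2 (background 14.8%), and KO 1 and KO 3 did so for 7 genes, Irx6 included (background 40.4%). The library labelled KO 2 by itself lay below all WT libraries for Irx1, Irx2 and Vax1 (background 22.5%). The same 7 genes had the order WT 2 above WT 3 above WT 1 (background 30.4%). Since the genes were chosen with this contrast in view, nothing is read from these counts.

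**Figure D3:**
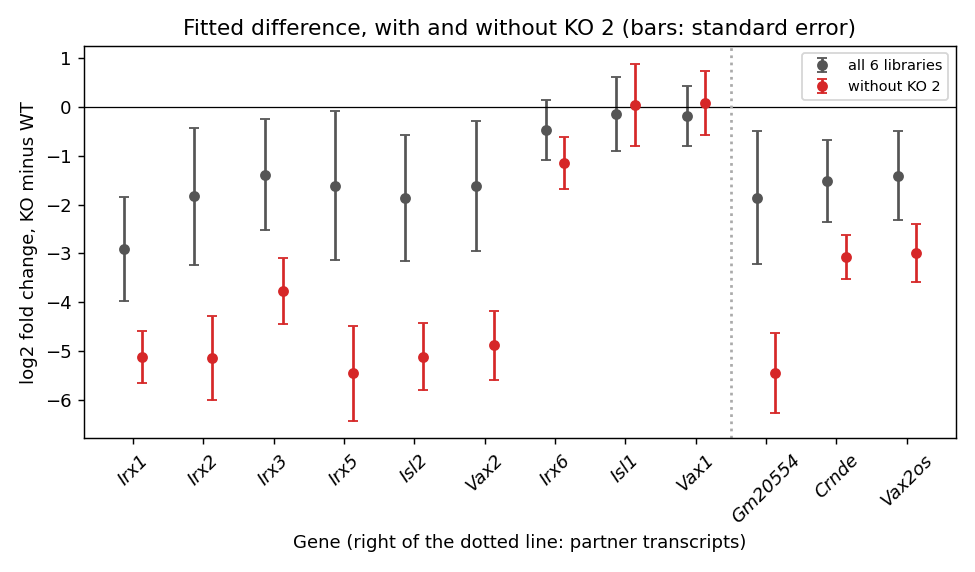
Fitted log2 fold change, KO minus WT, of the 9 genes and of 3 transcripts that start beside them (right of the dotted line), with the standard error as bars, from all 6 libraries (grey) and without the library labelled KO 2 (red). Leaving that library out moves Irx1, Irx2, Irx5, Isl2 and Vax2 to between -5.45 and -4.88, while Isl1 and Vax1 stay near 0.

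Levels were compared between genes on the length-scaled FPKM of the deposited table. In WT tumors the order ran from Vax2 (11.5 ± 4.69 FPKM, SD, n = 3) and Irx1 (9.97 ± 2.91) through Irx5 (6.09 ± 2.43), Irx3 (4.36 ± 1.64), Isl2 (3.99 ± 1.43) and Irx2 (3.89 ± 0.651) to Isl1 (1.78 ± 1.16), Vax1 (1.09 ± 0.510) and Irx6 (0.501 ± 0.152). The ranges of all neighbours in this order overlapped except those of Irx2 and Isl1. By percentile among all genes of a library, Vax2 stood at 38.7 to 62.3 in the WT libraries and at 51.2 in the library labelled KO 2, but at 11 in KO 1 and 3.94 in KO 3. Irx1 stood at 41.5 to 57.2 in WT, 26.7 in the library labelled KO 2, 8.23 in KO 1 and 3.92 in KO 3. Other members stood lower in WT: Irx2 at 26.9 to 33.0, Irx3 at 23.6 to 37.7 and Isl2 at 24.8 to 36.7. In KO tumors the mean FPKM of Vax2 was 3.69 ± 5.82 (SD, n = 3) and the ranges of every pair of neighbours in the order overlapped.

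The balance between the Iroquois genes was compared as the share of each gene in the reads of Irx1, Irx2, Irx3 and Irx5. Irx1 held 39.4%, 37.4% and 36.1% of these reads in WT 1, WT 2 and WT 3. In the library labelled KO 2 its share was 18.2% of 813 reads (exact binomial 95% interval 15.6 to 21), below the interval of every WT library, and that of Irx5 was 35.7% (32.4 to 39.1), above them. Thus the total of the 4 genes in that library was close to that of WT 1 (752 reads), but Irx1 was not the largest part of it. In KO 1 Irx1 held 27.3% of 55 reads (16.1 to 41.0), which spans the WT values. Irx3 was the largest share there, at 36.4% (23.8 to 50.4), above its interval in every WT library (up to 21.7). In the library labelled KO 2 Irx3 was also above them, at 26.6% (23.6 to 29.7). The 10 reads of KO 3 were too few to place either gene.

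**Figure D4:**
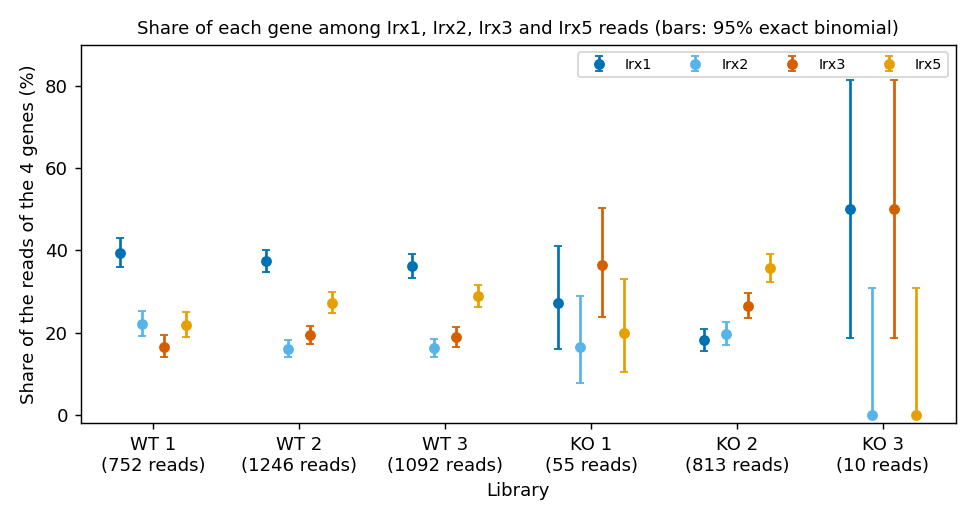
Share of Irx1, Irx2, Irx3 and Irx5 in the reads of these 4 genes, in percent, per library, with the number of reads under each name and exact binomial 95% intervals as bars (counting error only). Irx1 is the largest share in the 3 WT libraries, at 36.1% to 39.4%, and Irx5 in the library labelled KO 2, at 35.7%.

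Pairs of genes were compared by the root mean square difference of their centred log2 CPM over the 6 libraries, as a description over libraries that fall into separate groups. Of 36 pairs, Isl2 and Vax2, which lie on different chromosomes, were most alike (0.25), followed by Isl1 and Vax1 (0.35), and Irx5 and Vax1 were least alike (2.83). The ratio of Irx5 to Vax2 counts was 1.05, 1.02 and 1.04 in the WT libraries and 1.06 in the library labelled KO 2. In KO 1 it was 0.846, from 11 and 13 counts, and in KO 3 it was 0, from 0 and 3 counts.

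Several members have a non-coding transcript that starts next to them on the opposite strand. Vax2os, the antisense transcript of Vax2, was fixed by its name, whereas Gm20554, which starts 256 bases from Irx2, and Crnde, which starts 1505 bases from Irx5, were picked after their values were seen. Vax2os had 4.14, 9.20 and 6.80 CPM in WT 1, WT 2 and WT 3, 1.25 CPM in KO 1, 5.86 CPM in the library labelled KO 2 and 0.415 CPM in KO 3. Its log2 difference was -1.41 (SE 0.91, adjusted p = 0.287, edgeR) with all libraries and -2.99 (SE 0.59, adjusted p = 0.0136) without the library labelled KO 2. The genes of Vax2 and Vax2os overlap by 938 bases, and since the strand setting of the counting is not given in the sources used here, reads of the shared stretch cannot be told apart.

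Gm20554 was at 3.48, 5.98 and 5.91 CPM in the WT libraries, 0.227 CPM in KO 1, 3.92 CPM in the library labelled KO 2 and 0 counts in KO 3, where Irx2 had 0 counts too. The promoter window of Irx2 shown above lies between the starts of the pair. Crnde was at 4.14, 7.77 and 8.44 CPM in the WT libraries, 0.908 CPM in KO 1, 5.42 CPM in the library labelled KO 2 and 0.675 CPM in KO 3. The ratio of Irx2 to Gm20554 counts was 1.49 to 2.24 in WT and 2.25 in KO 1, from 9 and 4 counts. By contrast, the ratio of Irx5 to Crnde counts was 1.85 to 2.31 in WT and 2.36 in the library labelled KO 2, but 0.688 in KO 1 and 0 in KO 3, where Crnde had 13 counts and Irx5 none. Likewise, Vax2 to Vax2os was 1.78 to 2.21 in WT, 0.591 in KO 1 and 0.375 in KO 3. Without the library labelled KO 2, Gm20554 differed by -5.45 (SE 0.82, adjusted p = 0.00873, edgeR) and Crnde by -3.07 (SE 0.45, adjusted p = 0.00821) on the log2 scale. With all libraries the differences were -1.86 (SE 1.36, adjusted p = 0.332) and -1.52 (SE 0.84, adjusted p = 0.235), and neither passed.

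**Figure D5:**
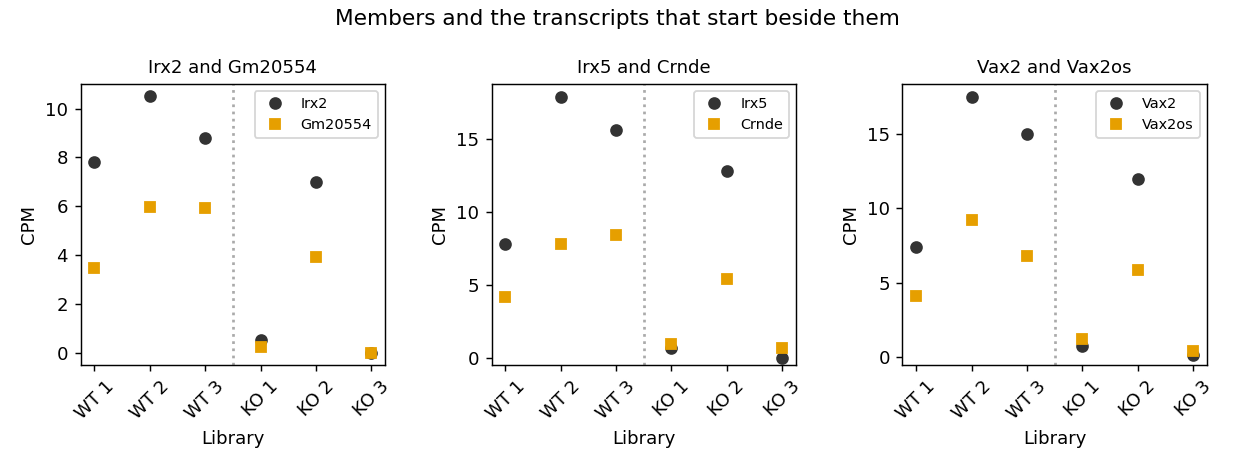
Levels of Irx2 and Gm20554, Irx5 and Crnde, and Vax2 and Vax2os in CPM per library, with the member as black circles, its partner as orange squares and a dotted line between WT and KO. Members lie above their partners in the WT libraries and in the library labelled KO 2, and Crnde and Vax2os lie above Irx5 and Vax2 in KO 1 and KO 3.

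Of the 43 other genes of the table that start within 500 kb of a member, 40 were tested with all libraries. By edgeR 0 were called lower and 0 higher, also at more than 4-fold and an unadjusted p under 0.05, and DESeq2, limma-voom and the edgeR exact test each called 0 as well. Without the library labelled KO 2, 7 of 41 were lower (Gm20554, Crnde, Vax2os, Gm21284, Mmp2, Mthfd2 and Slc12a7) and 0 higher, against a background of 7.48% lower. The median log2 difference of the neighbours was -0.21, and -0.27 without that library. Mthfd2, a mitochondrial folate enzyme gene that starts 385356 bases from Vax2, was lowest at -2.06 (SE 0.86, adjusted p = 0.185), and -3.57 (SE 0.45, adjusted p = 0.00798) without the library labelled KO 2. Emx2, a cortical homeobox gene 288316 bases from Vax1, was highest at 1.63 (SE 0.41, adjusted p = 0.184), and 1.96 (SE 0.25, adjusted p = 0.00798) without it.

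The other homeobox genes and the signals that are known to act on these families were read from 6 lists with 86 tested genes. With all libraries, edgeR called none of them (2 lower and 1 higher at more than 4-fold and an unadjusted p under 0.05), DESeq2 called 1 lower and 1 higher, and the edgeR exact test 1 lower and 0 higher. Without the library labelled KO 2, 16 were called lower and 1 higher, against 7.48% and 1.51% of all genes. This split rests on the fold threshold, since at the adjusted p alone 22 were lower and 25 higher. Of 12 tested homeobox genes of the hindbrain and spinal cord, 7 were called lower without the library labelled KO 2 (among them Nkx2-2, En1, En2, Gbx1, Gbx2 and Pou4f1) and 0 higher, with a list median of -2.14 (-1.04 with all libraries). Pou4f1, a factor of sensory and retinal ganglion neurons, had 9.04, 17.7 and 19.1 CPM in WT 1, WT 2 and WT 3, 0.454 CPM in KO 1, 7.32 CPM in the library labelled KO 2 and 0.0519 CPM in KO 3. Its log2 difference was -2.53 (SE 1.36, adjusted p = 0.228) and, without the library labelled KO 2, -5.89 (SE 0.74, adjusted p = 0.00798). Nkx6-2, an oligodendrocyte factor, was the highest of the list at 0.63 (SE 0.36, adjusted p = 0.243), and 0.76 (SE 0.38, adjusted p = 0.138) without that library. Of the 30 genes listed, 15 were in the table.

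Among 16 LIM homeodomain genes and their cofactors, 4 were called lower without the library labelled KO 2 (Lhx1, Lhx4, Lhx9 and Lmx1b) and 0 higher. Over all genes, 7.48% were called lower and 1.51% higher. The list median was 0.31 (0.23 with all libraries). Lhx1 was the lowest, at 2.54, 5.61 and 2.38 CPM in the WT libraries, 0.284 CPM in KO 1, 0.970 CPM in the library labelled KO 2 and 0.0519 CPM in KO 3 (log2 difference -2.96, SE 0.88, adjusted p = 0.184, and -4.34, SE 0.78, adjusted p = 0.0112 without that library). Lhx2, a factor of cortical progenitors and glia, was the highest at 1.47 (SE 0.35, adjusted p = 0.184), from 13.3 to 27.1 CPM in WT to 36.2 to 64.9 CPM in KO. Without the library labelled KO 2 its difference was 1.71 (SE 0.30, adjusted p = 0.0109), past the adjusted threshold but under 4-fold.

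Forebrain and eye homeobox genes, 17 of them tested, had 1 called lower (Gsx1) and 1 called higher (Emx1) without the library labelled KO 2. The share called lower, 5.88%, was under the 7.48% of all genes, and 1.51% of all genes were called higher. The list median was 0.63 (0.37 with all libraries). Gsx1 differed by -1.66 (SE 0.76, adjusted p = 0.192) with all libraries and by -2.65 (SE 0.64, adjusted p = 0.0209) without the library labelled KO 2. Emx1, a marker of cortical neurons, differed by 2.07 (SE 0.63, adjusted p = 0.184) and 2.44 (SE 0.53, adjusted p = 0.0165).

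Of 12 other TALE homeobox genes, Tgif1 and Tgif2, repressors of TGF-β and retinoid signals, were called lower without the library labelled KO 2. The list had 0 called higher, and over all genes 7.48% were called lower and 1.51% higher. Its median was 0.30 without that library (0.21 with all libraries). Tgif1 differed by -1.76 (SE 0.85, adjusted p = 0.202) with all libraries and -3.40 (SE 0.32, adjusted p = 0.00798) without it, and Mkx, a tendon factor, was highest with all libraries at 1.02 (SE 0.38, adjusted p = 0.184), and 1.32 (SE 0.27, adjusted p = 0.0149) without it. Of 13 hedgehog pathway genes, Smo, the signal transducer, and Dhh, a ligand, were called lower without the library labelled KO 2 and 0 higher. These counts stand against the same shares of all genes, and the list median was 0.21 (0.07 with all libraries). Smo differed by -1.64 (SE 0.47, adjusted p = 0.184) and -2.26 (SE 0.27, adjusted p = 0.00798), whereas Gli1, the pathway's transcriptional target and effector, differed by 1.26 (SE 0.34, adjusted p = 0.184) and 1.41 (SE 0.35, adjusted p = 0.0217). Of 16 retinoic acid pathway genes 0 were called in either direction, with medians of 0.21 and 0.29. Their ends were Crabp1, a retinoic acid binding protein, at -1.09 (SE 0.58, adjusted p = 0.224) and Aldh1a2, a retinoic acid synthesis enzyme, at 1.51 (SE 0.48, adjusted p = 0.184). When the library labelled KO 2 was left out, they were at -1.14 (SE 0.67, adjusted p = 0.194) and 1.36 (SE 0.51, adjusted p = 0.067).

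The genes whose course over the 6 libraries was nearest to the mean course of the 9 members, among 15291 genes with a mean of at least 1 CPM, were Eldr (root mean square difference 0.16 on the log2 scale), Gbx2 (0.17), Mns1 (0.18), Mtfr2 (0.18) and Il2ra (0.19). The members differed among themselves in this course. In KO 1 their mean stood at -1.25 in centred log2 CPM, with Irx1 at -2.39, Isl1 at 1.13 and Vax1 at 0.87. Likeness to the mean is therefore not likeness to each member. Eldr, a non-coding transcript, ran at 5.51, 9.94 and 7.0 CPM in the WT libraries, 1.31 CPM in KO 1, 6.57 CPM in the library labelled KO 2 and 0.208 CPM in KO 3. Gbx2, a homeobox gene of the anterior hindbrain, ran at 3.53, 4.39 and 3.62 CPM in WT, 0.511 CPM in KO 1, 2.34 CPM in the library labelled KO 2 and 0.104 CPM in KO 3. Mns1, a gene of cilia and flagella, was the most abundant in reads of the 5, at 34.9 to 53.6 CPM in WT. It had 34.2 CPM in the library labelled KO 2 and 1.82 to 5.62 CPM in KO 1 and KO 3.

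Lists of tumor and brain cell genes also differed between these libraries. Summed over 12 proliferation genes, the level was 1313, 2442 and 2289 CPM in WT 1, WT 2 and WT 3, 138 CPM in KO 1, 1457 CPM in the library labelled KO 2 and 43.8 CPM in KO 3, so that the WT mean was 22.1-fold above the mean of KO 1 and KO 3. The 10 neural stem and glioma cell genes summed to 1357, 1936 and 1801 CPM in the WT libraries, 541 CPM in KO 1, 1628 CPM in the library labelled KO 2 and 377 CPM in KO 3, a 3.70-fold ratio. In the opposite direction, the 10 neuron markers summed to 1864 to 5462 CPM in WT, 4711 CPM in the library labelled KO 2 and 12311 and 15189 CPM in KO 1 and KO 3. Oligodendrocyte markers (6 of 6) summed to 1314 to 3203 CPM in WT and 3078 to 7262 CPM in KO, ranges that overlapped, and astrocyte markers (6 of 6) to 2356 to 3378 CPM in WT and 3751 to 5785 CPM in KO. All 12 proliferation genes and 4 of the 10 neural stem and glioma cell genes were called lower by edgeR without the library labelled KO 2 (background 7.48%). Of the 10 neuron markers, 3 were called higher in that fit (background 1.51%). The astrocyte list was divided, with 4 genes higher and 1 lower at the adjusted p alone without the library labelled KO 2. Slc1a2, a glutamate transporter gene, ran at 565 to 1361 CPM in WT and 1918 to 4123 CPM in KO. It thus made up a large part of the list's sum in KO. In the fit without the library labelled KO 2 it was called higher (log2 difference 2.11, SE 0.43, adjusted p = 0.0144, and 1.83, SE 0.49, adjusted p = 0.184 with all libraries). Gfap, an intermediate filament gene, was called lower (-2.24, SE 0.21, adjusted p = 0.00798, and -1.39, SE 0.55, adjusted p = 0.184 with all libraries). The part of the cell mixture in the levels of the homeobox genes was not tested.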

How the data were processed

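RNA-seq of 6 tumors was analysed, 3 from WT and 3 from KO hosts, grouped by the labels. Per the labels, total RNA was extracted with TRIzol and libraries were made with a NEBNext Ultra RNA kit, whereas the methods of the study name an Ovation Ultralow kit. The submitters' processing notes name CASAVA 1.8.2, edgeR and mm10, whereas the methods name a human build, and the aligner settings and the strand of counting are not given in the sources used here. The authors deposited raw counts per gene and FPKM (counts scaled by gene length and by the total of the library); the lengths behind the FPKM were the same whole numbers in every library. Every gene of the table had a count in at least 4 libraries and at least 5 counts in some library. A further 9 columns (normalized values and fold changes) were not used, nor were the authors' comparison columns, which hold fold changes and p-values.

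Counts were filtered with filterByExpr (minimum count 10, minimum total 15), scaled by TMM and fitted with the quasi-likelihood test of edgeR 4.0.16 in R 4.3.3 over all genes and all 6 libraries, with Benjamini-Hochberg adjustment. A gene was called at more than 4-fold and an adjusted p under 0.05. Alternatives were DESeq2 1.42.0, limma-voom (limma 3.58.1), the edgeR exact test, other scalings and filters, a replicate block, leaving out each library, and the 4 libraries KO 1, KO 3, WT 1 and WT 2. The fits were tested on simulated counts. Centred profiles used log2 CPM with a prior count of 2. Gene positions came from GENCODE vM21, whose symbols matched 15937 of the 16729 genes.

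The members and lists were chosen with earlier results of these data known. Named genes were all members, transcripts named as antisense to a member, Esm1, the lowest and highest gene of each related list and of the genes within 500 kb by the fit to all libraries, and the 5 genes nearest to the mean member profile. Genes called without the library labelled KO 2, Gm20554, Crnde, Slc18a3, Slc1a2 and Gfap were named after their values were seen. Marker lists covered striatal and cholinergic neurons, neurons, oligodendrocytes, astrocytes, microglia and macrophages, endothelium, ependyma and choroid plexus, retina and pituitary, neural stem and glioma cells, and proliferation. The labels number the libraries as separate tumors and the study gives 3 mice per group, so p-values measure the spread between these tumors. Adjusted p-values from fits without the library labelled KO 2 are a description, since that library was set apart after its values were seen. Some items are not reported here.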

Additional observations from a re-analysis of the deposited data

How the results depend on the processing

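Leaving out single libraries gave 0 to 1218 genes called lower and 0 to 245 called higher, and every call came from leaving out the library labelled KO 2. In the related lists the range was 0 to 16 lower and 0 to 1 higher, and in the neighbouring genes 0 to 7 lower. The median log2 difference of the members ranged from -4.88 (without the library labelled KO 2) to -1.03, and that of Esm1 from -3.89 (adjusted p = 0.0226, edgeR, without that library) to -1.30, against -2.20 (SE 1.01, adjusted p = 0.192) with all libraries. With 4 libraries (KO 1, KO 3, WT 1 and WT 2), edgeR called 1008 genes lower and 73 higher, 10 and 0 in the related lists and 6 and 0 among the neighbours, with a members' median of -4.79 and Esm1 at -3.02 (adjusted p = 0.0425). With all libraries DESeq2 called 46 lower and 31 higher (related lists 1 and 1), and the edgeR exact test 53 and 17 (related lists 1 and 0). The members' median was -1.61 by DESeq2 and -1.62 by the exact test, but -3.29 by limma-voom, which called 0 genes in either direction. After the data were seen, DESeq2 and limma-voom were also run without the library labelled KO 2. DESeq2 then called 1240 lower and 301 higher (related lists 17 and 1, neighbours 7 and 0), with a members' median of -4.87 and Esm1 at -3.94 (adjusted p = 0.000607). limma-voom called 1198 and 433 (related lists 14 and 1, neighbours 7 and 1), with a members' median of -5.06 and Esm1 at -3.64 (adjusted p = 0.0263). The cause of these differences was not tested. Isl1 and Vax1 changed sign in 4 of 17 alternatives each (without WT 1, without the library labelled KO 2 by edgeR and by DESeq2, and without KO 3), and the other 7 members were negative in all 17.

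The replicate numbers of WT and KO were not taken as pairs, since the deviations of equally numbered libraries from their group means correlated at 0.55, 0.59 and -0.21. Not every library correlated best with its own number. With the number as a block, edgeR called 0 genes lower and 0 higher (384 lower and 46 higher at more than 4-fold and an unadjusted p under 0.05; smallest adjusted p 0.065), and the median of the members was -3.06. Depth limits what can be said of the lowest levels: 3 counts are worth 0.132 to 0.17 CPM across the libraries, and Irx2 and Irx5 had no count in KO 3.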

Other observations

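Endothelial markers (6 of 6 in the table) summed to 134 to 174 CPM in WT and 137 to 186 CPM in KO. By edgeR 0 were called in either direction with or without the library labelled KO 2 (median log2 difference -0.17 and -0.16). Without that library, 7.48% of all genes were called lower and 1.51% higher. At the adjusted p alone, without that library, 2 of these markers were higher and 0 lower. Microglia and macrophage markers (7 of 7) summed to 559 to 609 CPM in WT, 420 and 398 CPM in KO 1 and KO 3, and 793 CPM in the library labelled KO 2. Ependymal and choroid plexus markers (5 of 6) summed to 386 CPM in WT 1 and to 8.62 to 21.9 CPM in the other 5 libraries. Retina and pituitary markers (3 of 8) summed to 5.76 to 10.3 CPM in WT, 5.96 and 29.5 CPM in KO 1 and KO 3, and 45.5 CPM in the library labelled KO 2.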
